A study of Mus musculus with 6 samples.

Results

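The genes described here are 10 genes of the IL-4 axis and of alternative macrophage activation, namely Il4ra, Stat6, Irf4, Socs1, Klf4, Pparg, Mrc1, Arg1, Retnla and Chil3, out of 19938 genes measured. They were chosen by symbol, and each was represented by the only probe set assigned to that gene alone, so all 10 were measured. Expression was measured in RAW264.7, an established mouse macrophage-like cell line, 18 h after transfection with a negative control mimic (control, 3 arrays) or a miR-342-3p mimic (3 arrays). A mimic is a synthetic RNA duplex that the cell uses like its own mature microRNA. By the labels, time, RNA input and plated cell number were the same in both groups. Neither group is labelled as having received IL-4, so the values describe these genes in unstimulated cells of 1 tumor-derived line. The values are log2 expression values, normalized across arrays by the authors with RMA, and the number of arrays limits their precision.

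IL-4 binds the receptor chain encoded by Il4ra, which pairs either with the common gamma chain (type I receptor) or with the IL-13 receptor chain encoded by Il13ra1 (type II receptor). Janus kinases bound to these chains phosphorylate STAT6, which enters the nucleus and turns on the alternative activation program, while insulin receptor substrates carry the PI3K branch and SOCS1 and phosphatases limit the signal. IRF4, KLF4 and PPARγ are transcription factors of this program. The mannose receptor (Mrc1), arginase 1 (Arg1), RELMα (Retnla) and Ym1 (Chil3) are its classical markers in mouse macrophages.

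The microRNA is processed from an intron of Evl, and the comparison asks which genes change when it is supplied to macrophages. Its mature sequence is shown because it defines the treatment, with the seed (bases 2 to 8), the part that pairs with target transcripts, in capitals. It lies at chr12:108658680-108658702 on the plus strand of GRCm38.p6 (RefSeq).
mmu-miR-342-3p: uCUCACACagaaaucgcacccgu

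RefSeq promoter windows of 300 bases around the transcription start were held for 9 of the 10 genes, in 11 windows. Arg1 had no entry. They were searched for TTC and GAA separated by any 4 bases, the palindromic motif to which STAT6 is known to bind, and for TTC and GAA separated by any 3 bases, the general STAT motif. Each reads the same on both strands. The first was found in 6.95% and the second in 8.3% of all 32851 windows. Among the 10 genes, the window of Retnla held the first motif, 145 bases before the start, and that of Chil3 held the second, 172 bases before the start. Both are shown with the motif in capitals, at chr16:48842454-48842483 (plus strand) and chr3:106167718-106167746 (minus strand) of GRCm38.p6. The window of Chil4, the near-identical neighbor of Chil3, held the same 29 bases, and a probe set of one of these genes may also report the other.
Retnla: agaatcataaTTCACAAGAAattgctaaac
Chil3: aaatacccacTTCTTAGAAacatagctat
The windows of Il4ra, Socs1, Klf4, Stat6, Irf4, Pparg and Mrc1 held neither motif. A match is a string of letters and not a measured binding site.

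The arrays were checked before the comparison. Control arrays correlated with each other at 0.9982 to 0.9986 across genes and miR-342-3p arrays at 0.9909 to 0.9926. The miR-342-3p replicate 3 lay nearer to the controls, with 0.9961 as its highest correlation with one of them. Macrophage markers averaged between 10.50 and 10.68 on the 6 arrays, with Cd68, Lyz2 and Csf1r among the bright ones. Markers of lymphocytes averaged between 5.36 and 5.76 and those of fibroblasts between 6.56 and 6.97. Those of dendritic cells averaged between 6.30 and 6.66 and those of epithelium between 6.56 and 6.83. Single markers of different lists overlapped. In the controls the macrophage marker Adgre1 averaged 7.49, below the fibroblast marker Col1a1 (7.93). By limma's test (FDR under 0.1), Pdgfra of the 6 fibroblast markers was higher with miR-342-3p (log2 fold change 0.49). Of the 10 macrophage markers 2 were lower (Itgam and Fcgr1) and 2 higher (Mertk and Spi1, which is also in a list below). Over all genes 7.42% were called lower and 4.14% higher. Of 5 lymphocyte, 5 dendritic cell and 4 epithelial markers measured, none passed. At an unadjusted limma p under 0.05 there were 1, 0 and 0 of them, and 5086 of all 19938 genes. The part of these markers in the results was not tested.

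In miR-342-3p-transfected cells the receptor gene Il4ra, the transcription factor gene Klf4 and the feedback inhibitor gene Socs1 were upregulated by 1.22- to 1.37-fold. The 4 classical markers Arg1, Mrc1, Retnla and Chil3 did not pass the test, nor did Stat6, Irf4 and Pparg. limma was fitted over all genes, its p-values were turned into FDRs (Benjamini and Hochberg), and a gene was called at an FDR under 0.1. A positive log2 fold change is a higher value in miR-342-3p-transfected cells. Thus 3 of the 10 genes were called higher and none lower, where 4.14% of all genes were called higher and 7.42% lower. The median log2 fold change of the 10 genes was 0.11, against 0.07 over all genes. The spread between the miR-342-3p arrays was larger than between the controls in each of the 10 genes except Irf4.

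**Figure D1:**
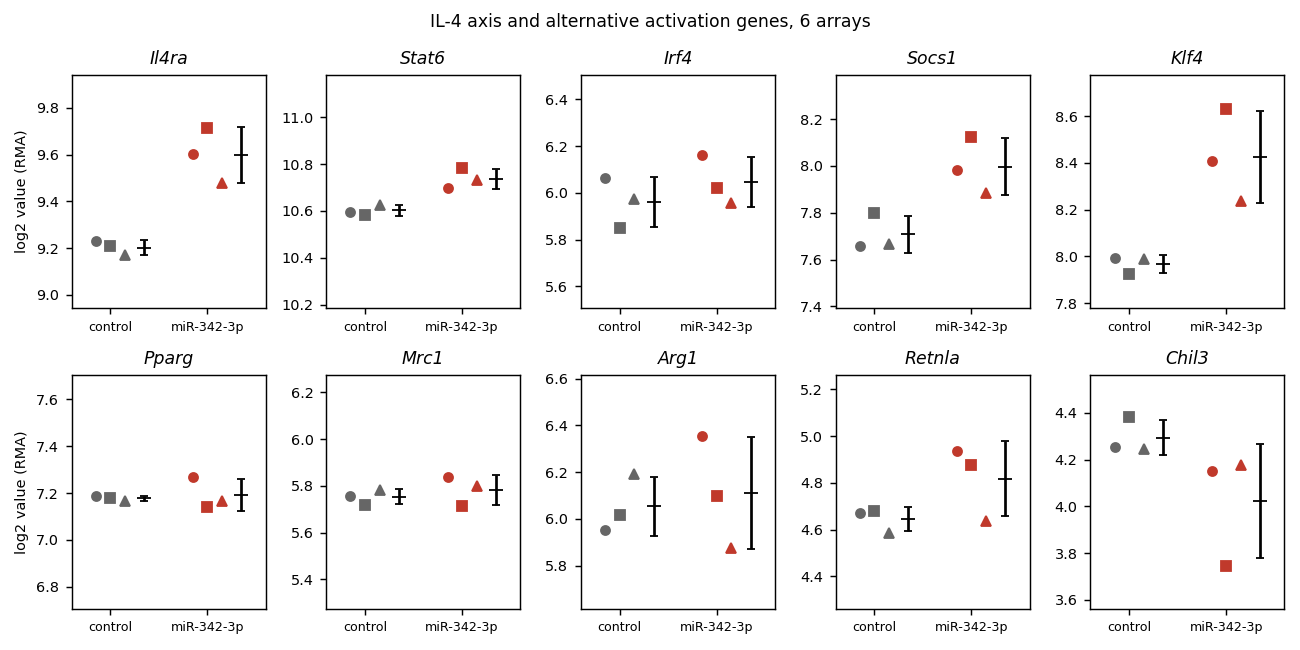
Log2 values of the 10 genes on the 6 arrays. Controls are grey and miR-342-3p-transfected samples red, circles, squares and triangles are replicates 1, 2 and 3, and the black bar is the mean ± SD (n = 3); each vertical axis spans 1 log2 unit. The groups lie apart upward in Il4ra, Stat6, Socs1 and Klf4, downward in Chil3, and overlap in the other 5 genes.

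Il4ra encodes the signaling chain shared by both IL-4 receptor types. Its log2 values were 9.23, 9.21 and 9.17 in control replicates 1 to 3 and 9.60, 9.71 and 9.48 in miR-342-3p replicates 1 to 3. Every miR-342-3p array lay above every control array. The log2 fold change was 0.40 (standard error 0.084, 95% interval 0.21 to 0.59, limma FDR = 0.036), a 1.32-fold rise.
Klf4, a transcription factor that is induced by IL-4 through STAT6 and cooperates with it, showed the largest change of the 10 genes. Its values were 7.99, 7.93 and 7.99 in the controls and 8.41, 8.63 and 8.24 with miR-342-3p. The groups did not overlap, and replicate 2 was the highest and replicate 3 the lowest of the miR-342-3p arrays. The log2 fold change was 0.46 (standard error 0.10, 95% interval 0.22 to 0.69, limma FDR = 0.044).
Socs1 encodes an inhibitor of Janus kinases that IL-4 and interferons induce. It measured 7.66, 7.80 and 7.67 in the controls against 7.98, 8.12 and 7.88 with miR-342-3p, again with no overlap. Its log2 fold change of 0.29 (standard error 0.088, limma FDR = 0.093) lay close to the threshold, and it was not called with arrays centered on their medians (FDR = 0.180) or with array weights (FDR = 0.136).
In all 3 genes miR-342-3p replicate 2 moved most and replicate 3 least. The changes from the control mean in replicates 1, 2 and 3 were 0.40, 0.51 and 0.27 for Il4ra. For Klf4 they were 0.44, 0.66 and 0.27, and for Socs1 0.28, 0.42 and 0.18. None of the 10 genes was called by limma when control replicate 1, 2 or 3 was left out. Each time 3 of them had an unadjusted limma p under 0.05, as had 3072, 3298 and 3156 of all 19938 genes. Socs1 was also not called without miR-342-3p replicate 1 (FDR = 0.132) or 2 (FDR = 0.117). The methods' t-test, which does not share the spread between genes, called none after adjustment and 4 at the unadjusted threshold of the methods. Of all 19938 genes, the same test called 48 after adjustment and 4035 at the unadjusted threshold.

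Stat6, the transcription factor of the axis, measured 10.60, 10.58 and 10.63 in the controls and 10.70, 10.78 and 10.73 with miR-342-3p. The groups did not overlap, but the log2 fold change of 0.13 (95% interval -0.03 to 0.30) did not pass the test (limma FDR = 0.256). The interval leaves room for a rise of up to 0.30 and for little or no change. Of the 10 genes, 4 had all miR-342-3p values above the controls and 1 had all below, where 21.4% and 15.5% of all genes did so (36.9% in either direction). In an exact permutation test of a single gene, two-sided, 3 arrays against 3 cannot give a p below 0.1, and Il4ra, Klf4, Socs1, Stat6 and Chil3 were each at that value.
Irf4, a transcription factor required for expression of many alternative activation genes, measured 6.06, 5.85 and 5.97 in the controls against 6.16, 6.02 and 5.96. The groups overlapped, with a log2 fold change of 0.09 (95% interval -0.12 to 0.29, limma FDR = 0.537).
Pparg encodes the lipid-activated nuclear receptor of the program, and its control values were the tightest of the 10 genes, 7.19, 7.18 and 7.17 against 7.27, 7.14 and 7.16. Its change of 0.014 on the log2 scale had a 95% interval of -0.15 to 0.18 and a limma FDR of 0.910, and its sign turned when arrays were centered on their medians (-0.015).

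The classical markers lay in the lower range of the array. Mean values above the median of all genes were found for 5 of the 10 genes (Il4ra, Stat6, Socs1, Klf4 and, narrowly, Pparg), and Irf4, Mrc1, Arg1, Retnla and Chil3 were below it. The brightness of a probe set also depends on its probes, and no detection call was used, so a low transcript level and none cannot be told apart for these genes.
Mrc1, the mannose receptor CD206, measured 5.76, 5.72 and 5.78 in the controls and 5.84, 5.71 and 5.80 with miR-342-3p. The groups overlapped, and the 95% interval of the log2 fold change of 0.03 reached from -0.14 to 0.20 (limma FDR = 0.801).
Arg1, which hydrolyzes arginine to ornithine and urea, did not move in one direction. It measured 5.95, 6.02 and 6.19 in the controls and 6.36, 6.10 and 5.88 with miR-342-3p, so that replicate 1 was above and replicate 3 below all controls. The log2 fold change was 0.06 (95% interval -0.23 to 0.34, limma FDR = 0.777), and it was -0.07 without miR-342-3p replicate 1.
Retnla, a secreted protein of type 2 immune responses, measured 4.67, 4.68 and 4.59 against 4.94, 4.88 and 4.64. Replicates 1 and 2 lay above the controls and replicate 3 among them. The log2 fold change of 0.17 (95% interval -0.04 to 0.39) did not pass the test (limma FDR = 0.274). Without replicate 3 it was 0.26 and passed it (FDR = 0.072).
Chil3, a secreted chitinase-like protein, was the only gene of the 10 with a negative log2 fold change. It measured 4.26, 4.38 and 4.24 in the controls and 4.15, 3.74 and 4.18 with miR-342-3p, and replicate 2 was farthest from the controls. Its log2 fold change of -0.27 (95% interval -0.54 to 0.0040, limma FDR = 0.200) was -0.13 without replicate 2. The Chil4 probe set, at 2.97, 2.93 and 3.05 against 3.09, 3.32 and 3.16, had a log2 fold change of 0.20 (limma FDR = 0.186).

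**Figure D2:**
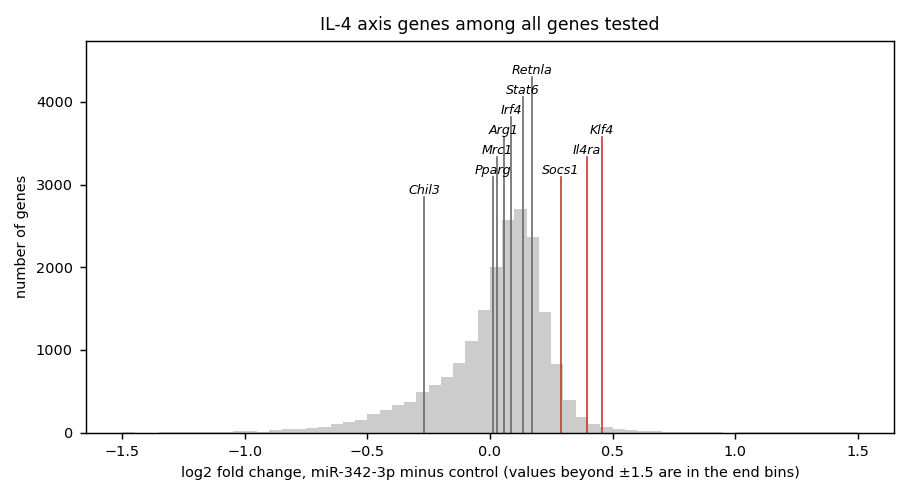
Histogram of the log2 fold changes of all 19938 genes (grey bars, number of genes per bin of 0.05) with the 10 genes as vertical lines, red where called at an FDR under 0.1 and grey otherwise. Socs1 (0.29), Il4ra (0.40) and Klf4 (0.46) lie in the right flank and Chil3 (-0.27) in the left, and the other 6 lie between 0.014 and 0.17 near the median of all genes (0.07).

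Genes that work with the 10 were grouped into 5 lists by role. Of their 75 measured genes, 6 were called higher and 4 lower by limma, or 13.3% in either direction, which is near the 11.6% called over all genes. With arrays centered on their medians the split was 4 and 2, against 408 and 1384 of all 19938 genes. With quantile normalization repeated it was 14 and 2, against 1826 and 1422 of all genes. Without control replicate 1 limma called Ppard alone, and without control replicate 2 or 3 none of the 75 genes. Without control replicate 2 or 3, 17 and 13 of them had an unadjusted limma p under 0.05, against 3298 and 3156 of all 19938 genes. The methods' t-test called none of the 75 after adjustment and 21 at its unadjusted threshold, against 48 and 4035 of all 19938 genes. Without miR-342-3p replicate 1, 2 or 3 limma called 5, 16 and 21 of the 75 genes, against 1661, 3001 and 4526 of all 19938 genes.
Of 17 measured genes for ligands, receptor chains and proximal signaling, limma called 3 lower and 2 higher, where 7.42% of all genes were called lower and 4.14% higher, and the remaining 12 were not called (median log2 fold change -0.04, against 0.07 over all genes). With arrays centered on their medians 2 were called lower and 1 higher, against 1384 and 408 of all 19938 genes. With quantile normalization repeated 2 were called lower and 6 higher, against 1422 and 1826 of all genes.
Il13ra1, the partner of Il4ra in the type II receptor, had the largest fall of the list. It measured 8.96, 8.87 and 8.84 in the controls and 8.07, 8.18 and 8.61 with miR-342-3p. The groups lay apart, and the log2 fold change was -0.61 (standard error 0.13, 95% interval -0.91 to -0.30, limma FDR = 0.039).
Jak1, the kinase bound to the Il4ra product, measured 9.92, 10.02 and 9.88 against 9.52, 9.64 and 9.72, a log2 fold change of -0.31 (limma FDR = 0.067). Ptpn6, the phosphatase SHP-1, was at 10.45, 10.50 and 10.48 against 10.20, 10.19 and 10.32 (log2 fold change -0.24, limma FDR = 0.094). Both were lower on every miR-342-3p array. With 1 array left out their FDRs reached 0.261 and 0.304, and neither was called without miR-342-3p replicate 1 (FDR = 0.101 and 0.122). Ptpn6 was also not called without miR-342-3p replicate 2 (FDR = 0.106), with arrays centered on their medians (FDR = 0.101) or with quantile normalization repeated (FDR = 0.122). With array weights Ptpn6 (FDR = 0.122) and Jak1 (FDR = 0.107) were both not called.
The insulin receptor substrate gene Irs2, which links the type I receptor to PI3K, measured 7.96, 7.91 and 7.93 in the controls and 8.37, 8.50 and 8.19 with miR-342-3p. All miR-342-3p arrays were above the controls, and the difference was 0.42 on the log2 scale (standard error 0.092, limma FDR = 0.041). Its relative Irs1 had a log2 fold change of 0.32 (limma FDR = 0.079), but the other probe set of Irs1, the brighter one, gave 0.08 (FDR = 0.648). Irs1 was also not called with arrays centered on their medians (FDR = 0.103), with array weights (FDR = 0.152) or without miR-342-3p replicate 1 (FDR = 0.144). The receptor chain gene that rose (Il4ra) and the one that fell (Il13ra1) changed in opposite directions on each of the 3 miR-342-3p arrays. This follows from their calls, with groups apart in both genes, and is no further result. Il2rg, which encodes the common gamma chain, had no probe set of its own and was not analysed.

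**Figure D3:**
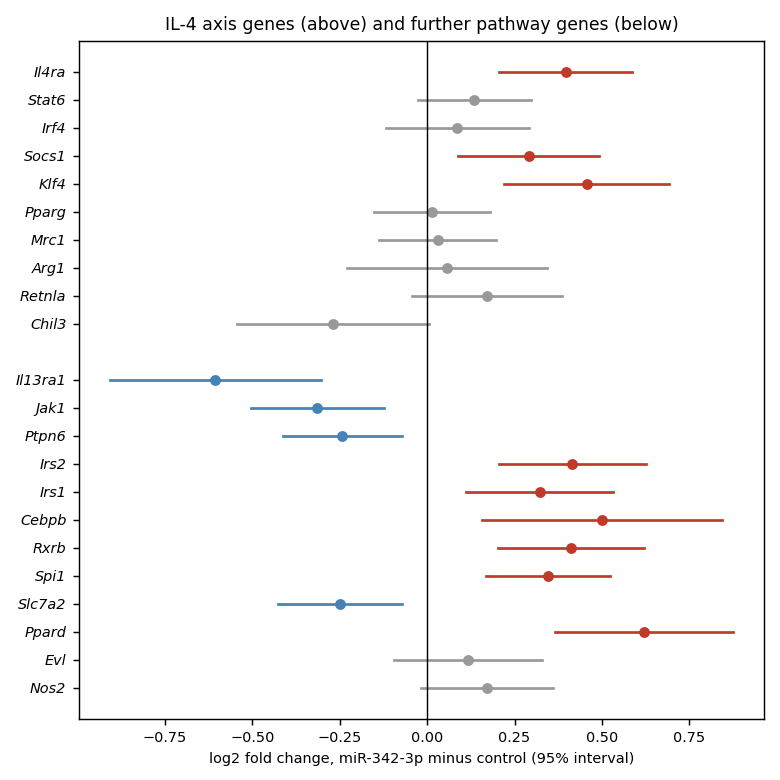
Log2 fold changes with 95% intervals from limma (n = 3 arrays per group) for the 10 genes (upper block) and for the named genes of the 5 lists (lower block), in red where called higher, in blue where called lower and in grey where not called. Il4ra, Socs1 and Klf4 are the red points of the upper block, and Il13ra1 (-0.61) and Ppard (0.62) are the extremes of the lower block.

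Of 14 measured transcription factors and cofactors of alternative activation, limma called 3 higher and 0 lower, where 4.14% and 7.42% of all genes were called, leaving 11 not called, with a median log2 fold change of 0.11. With arrays centered on their medians 2 were called higher, against 408 of all 19938 genes. Cebpb, a factor that drives Arg1 expression, measured 9.42, 9.49 and 9.41 in the controls and 9.93, 10.29 and 9.60 with miR-342-3p (log2 fold change 0.50, limma FDR = 0.091). Rxrb, a retinoid X receptor and potential dimer partner of PPARγ, was at 9.06, 9.01 and 9.00 against 9.40, 9.61 and 9.30 (0.41, limma FDR = 0.042). The macrophage lineage factor gene Spi1 (PU.1) was at 11.53, 11.58 and 11.47 against 11.83, 11.96 and 11.82 (0.35, limma FDR = 0.044). In each of these 3 genes the groups lay apart and replicate 2 was the highest array. Cebpb had a log2 fold change of 0.32 without miR-342-3p replicate 2 and was not called without replicate 1 or 2 (FDR = 0.174 and 0.105), with arrays centered on their medians (FDR = 0.140) or with array weights (FDR = 0.106).
Of 22 further alternative activation markers measured, among them chemokines, lectins and lipid genes, limma called none, where 11.6% of all genes were called. Only 6 of the 22 had mean values above the median of all genes. Fitted among the genes above it, none of these 6 was called, against 3038 of 9969. For the markers below it, a low transcript level and none cannot be told apart. An unadjusted limma p under 0.05 was reached by 2 of the 22 and by 5086 of all 19938 genes. The methods' t-test called none of the 22 after adjustment, and 48 of all genes. The log2 fold changes of the 22 markers reached from -0.21 to 0.27, with a median of 0.07, against 0.07 over all genes. Evl, the host gene of miR-342, measured 7.68, 7.70 and 7.67 in the controls and 7.98, 7.74 and 7.67 with miR-342-3p. The groups overlapped, and the log2 fold change of 0.12 had a 95% interval of -0.10 to 0.33 (limma FDR = 0.426). Without miR-342-3p replicate 3, 3 of the 22 markers were called higher and 1 lower, against 2104 and 2422 of all 19938 genes. Without replicate 2, 1 marker was called lower, against 1830 of all genes.

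Arginase 1 competes for arginine with the inducible nitric oxide synthase Nos2. Of 7 measured genes of arginine metabolism limma called only Slc7a2, where 11.6% of all genes were called. Slc7a2 encodes a cationic amino acid transporter that macrophages induce on activation. It measured 8.29, 8.26 and 8.26 against 7.99, 7.95 and 8.13, a log2 fold change of -0.25 (limma FDR = 0.098), but it was not called when arrays were centered on their medians (FDR = 0.101), quantile normalization was repeated (FDR = 0.114) or array weights were used (FDR = 0.144), nor when any 1 array except miR-342-3p replicate 3 was left out (FDR up to 0.318). Nos2 had a log2 fold change of 0.17 (95% interval -0.02 to 0.36, limma FDR = 0.229), with values of 6.43, 6.46 and 6.51 against 6.76, 6.61 and 6.54.
Among 15 relatives of the 10 genes, limma called 1 higher and none lower, where 4.14% and 7.42% of all genes were called. The called gene was Ppard, the PPARδ receptor gene. It measured 9.23, 8.96 and 9.03 in the controls and 9.64, 9.90 and 9.55 with miR-342-3p, with no overlap. The log2 fold change was 0.62 (standard error 0.11, 95% interval 0.36 to 0.88, limma FDR = 0.025), a 1.54-fold rise. Its 95% interval lay above that of Pparg (-0.15 to 0.18), and the difference between these relatives was not tested. RELM and chitinase-like relatives of Retnla and Chil3 were not called.

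**Figure D4:**
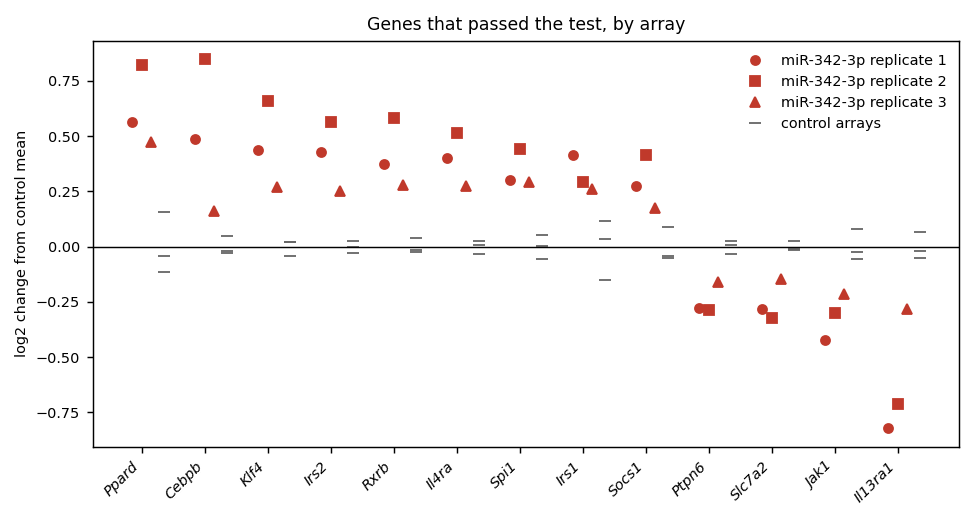
Change from the control mean in log2 units for the 13 called genes, with red circles, squares and triangles for miR-342-3p replicates 1, 2 and 3 and grey dashes for the 3 control arrays. Replicate 3 is the nearest to the controls in all 13 genes, from 0.16 in Cebpb to 0.47 in Ppard among the rises and from -0.14 in Slc7a2 to -0.28 in Il13ra1 among the falls.

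The genes whose values were most like those of Klf4 over the 6 arrays, by Pearson correlation, were Speg (0.9992), Sh2b3 (0.9989) and Gpr146 (0.9979). These arrays share 1 group difference, and 678 genes correlated with Klf4 above 0.95, so the order among them is a description of the 6 arrays only.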

How the data were processed

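Total RNA (150 ng) of 3 control and 3 miR-342-3p-transfected samples, from wells plated with 500000 cells, was labeled and hybridized to Affymetrix mouse gene arrays. The log2 values deposited by the authors come from RMA, which corrects background, equalizes the distributions of the arrays and summarizes probes, and cover 35556 probe sets on each array. The sources used here name no RMA release. No further normalization was applied. Array medians differed by at most 0.151, and no arrays held identical values. Groups and replicate numbers came from the sample titles. The labels do not say that replicates are separate cultures, so p-values measure the spread between these samples.

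Gene names came from the platform annotation, which gave 1 gene for 21789, several for 1621 and none for 12146. For genes with several probe sets (999) the most variable one by interquartile range was taken. All 19938 genes were fitted with limma version 3.58.1 (R version 4.3.3), with 4 residual and 4.79 prior degrees of freedom, Benjamini-Hochberg adjustment ran over all genes, and genes were called at an FDR under 0.1. The steps were tested on simulated data, where the share of false calls was somewhat above the FDR threshold. Log2 fold changes of 0.5 and 1 were mostly recovered there. Recovery of smaller ones, such as those of Il4ra, Klf4 and Socs1, was not tested. The simulation gave both groups the same spread. It therefore cannot show false calls or recovery at the larger spread of the miR-342-3p arrays. Plots used matplotlib 3.10.9 under Python 3.11.15.

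The genes and the lists were chosen with earlier results of these data known. The named genes are the 10 genes, from each list at most 4 called genes in its commoner direction and at most 2 in the opposite one, by size of change, Evl, Il13ra1, Jak1 and Nos2, and the 3 genes most correlated with Klf4, which had the largest change among the called genes of the 10. Cd68, Lyz2, Csf1r, Adgre1, Itgam, Fcgr1, Mertk, Col1a1, Pdgfra and Chil4 were named in addition after their values were seen. Genes of the lists without a probe set of their own were not analysed here. Alternatives were the replicate block, each array left out, other probe sets, a filter on level, other scalings, array weights, another prior, an FDR under 0.05 and the methods' t-test.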

Additional observations from a re-analysis of the deposited data

How the results depend on the processing

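Of the 10 genes, 3 were called by limma. With the replicate number as a block 2 were called (Il4ra and Klf4), and Il4ra and Klf4 alone were also called with arrays centered on their medians, with array weights and at an FDR under 0.05. The methods' t-test called 0. With 1 array left out the count was between 0 and 4. Of the 75 genes of the lists, 10 were called. The count was 8 with the replicate block, 17 among the 41 genes above the median level, 6 with arrays centered on their medians, 16 with quantile normalization repeated, 6 with array weights, 0 with the methods' t-test, 5 at an FDR under 0.05, and between 0 and 21 with 1 array left out. The labels do not say whether same-numbered arrays belong together. Deviations of same-numbered arrays from their group means correlated at -0.31, -0.16 and -0.11, and no array deviated most like its own number. With 3 arrays a group, and a larger spread between the miR-342-3p arrays, these values cannot decide whether the arrays were paired. The sign turned in Pparg and Arg1. Pparg was at -0.015 with arrays centered, at -6.73e-05 with array weights and between -0.024 and 0.038 with 1 array left out, and Arg1 was at -0.080 with array weights and between -0.067 and 0.174 with 1 array left out. Of 345 values of 22 named genes (without those most correlated with Klf4) under 16 alternatives, 256 kept direction and side of the threshold, 83 kept the direction but were no longer called, 1 was newly called and 5 turned. Over all genes 825 were called higher and 1479 lower, which became 408 and 1384 with arrays centered and 1826 and 1422 with quantile normalization repeated. The count fell to 202, 203 and 234 without control replicate 1, 2 or 3, and it was 48 with the methods' t-test and 973 at an FDR under 0.05. It was 1995 with the replicate block, 2088 with array weights, and 1661, 3001 and 4526 without miR-342-3p replicate 1, 2 or 3. Among the 9969 genes above the median level it was 3038. The replicate block also ended the calls of Jak1 (FDR = 0.116), Ptpn6 (FDR = 0.213), Irs1 (FDR = 0.127) and Slc7a2 (FDR = 0.206). The cause of these changes was not tested.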
